A study of Rattus norvegicus with 15 samples.

Results

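Oxygen and glucose deprivation (OGD) followed by reoxygenation was examined in rat bone marrow mesenchymal stem cells that carried a lentiviral hairpin against luciferase (shLuci). The 3 libraries titled shLuci+OGD were set against the 3 titled shLuci, which makes 6 of the 15 RNA sequencing libraries of the study. They were chosen by their sample titles and by the matching columns of the expression table, over all genes listed. The shLuci+OGD cells were held for 12 h in glucose-free medium at 1% O2 and then went through 24 h labelled R, read here as reoxygenation. The shLuci cells stayed in high-glucose medium with 10% serum at 5% CO2. Both groups carry the same lentivirus, and both came from Sprague dawley rats (femoral bone marrow) and used at passages 3 to 5. The other 9 libraries are shRac1+OGD and shRac1, which received a hairpin against Rac1 with and without the same deprivation, and uninfected cells (BMSC), with 3 libraries each. Nothing in the labels says whether replicates are separate cultures or animals, so p-values measure only the spread between samples, which may be technical. In the tests of each gene that spread is pooled within the groups of all 15 libraries, so it can differ from that of the 6 compared. Libraries were made from bulk cultures, in which fewer cells of a type and less RNA per cell cannot be told apart.

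Mesenchymal stem cells are adherent cells of the marrow stroma that can form bone, fat and cartilage and that secrete growth factors and matrix. Deprivation of oxygen and glucose is a culture model of ischaemia. Low oxygen stabilises the transcription factor HIF, which switches on glycolysis and angiogenic signals, lack of glucose engages energy and nutrient stress pathways, and reoxygenation brings a burst of oxidants that NRF2 and metal-binding proteins counter. RNA was taken after the reoxygenation, so the levels below describe cells 24 h past the end of the deprivation.

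Levels are FPKM (fragments per kilobase of transcript, scaled to the mapped fragments of each library), for 12169 genes. Of these, 11515 reached 1 FPKM in at least 3 libraries and were tested with limma on log2(FPKM + 0.5), with a gene called at a Benjamini-Hochberg adjusted p below 0.05. The deposited values give no read counts, so their depth is unknown. Summed over genes, the FPKM of the libraries came to between 463945 and 516495, except in BMSC replicate 2, which stood at 628685. In the comparison of shLuci+OGD with shLuci that library enters only the filter on low values and the pooled estimate of spread. Without it more genes were called there in each direction. It is also part of every count, mean and SD given for BMSC. Rac1 stood at 139, 168 and 159.7 FPKM in shLuci+OGD, against 165, 158 and 146 FPKM in shLuci, and the groups overlapped (log2 change -0.01, limma adjusted p = 0.958). A two-sided exact permutation test over the 6 libraries gave p = 1, where 0.1 is the smallest possible. Rac1 averaged 147 ± 4.96 FPKM in the libraries labelled shRac1, against the 156 ± 9.90 FPKM of shLuci, and their ranges of 142 to 151 and 146 to 165 FPKM overlap, so the transcript does not mark these libraries and directions rest on the sample titles. Counted side by side, and sharing the same 3 shLuci+OGD libraries, 2564 genes (22.3%) were called between shLuci+OGD and shLuci and 1806 (15.7%) between shLuci+OGD and the libraries labelled shRac1. The count was 856 (7.43%) between shLuci+OGD and shRac1+OGD, and 3570 (31.0%) between shLuci+OGD and BMSC. For shRac1+OGD it was 1239 (10.8%) against shLuci and 1376 (11.9%) against the libraries labelled shRac1. Each OGD group thus had fewer calls against the other hairpin's undeprived libraries than against its own. What lies behind this was not tested.

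The cells were checked against markers of their type. Of 12 marker names of mesenchymal stem cells, which hold Itgb1 also under its other name Cd29, 7 were listed. Their summed level lay between 1110 and 1153 FPKM in shLuci+OGD and between 1369 and 1411 FPKM in shLuci. Pdgfra, a growth factor receptor, was called higher (a call lost with common-total scaling and without shLuci+OGD replicate 3 or shLuci replicate 1), and Thy1, a surface glycoprotein, was called lower. The leukocyte and progenitor markers Ptprc, Cd34 and Kit were not among the genes listed, nor was any of 8 erythroid and 5 lymphoid markers. The mesenchymal markers Nt5e, Eng, Lepr and Vcam1 were not listed under these symbols either, so absence from the list does not show a lack of expression. Of 12 macrophage markers 3 were listed, with a summed level of 12.88 to 15.3 FPKM in shLuci+OGD and 8.03 to 10.2 FPKM in shLuci, most of it from Cd14. The other 2, Cd68 and Fcer1g, stood below 1 FPKM as group means and were not called, with log2 changes of -0.29 and -0.10. Of 6 neutrophil markers Ngp alone was listed, and it was called higher (a call lost with quantile normalization and without shLuci+OGD replicate 2 or shLuci replicate 1 or 2), at 0.945, 1.47 and 1.02 FPKM in shLuci+OGD, against 0.346, 0.413 and 0.688 FPKM in shLuci. The smooth muscle markers Myh11, Acta2, Cnn1 and Des summed to between 1618 and 1897 FPKM in shLuci+OGD and between 3455 and 4083 FPKM in shLuci, and Acta2 made up most of both sums. Myh11 was also called lower, whereas Des was called higher and Cnn1 was not called. The osteoblast markers Alpl, Ibsp, Runx2 and Dmp1 summed to between 12.17 and 13.72 FPKM in shLuci+OGD and between 33.38 and 38.08 FPKM in shLuci, and that gap came from Alpl, which was called lower. Dmp1 was called higher, at 1.52 ± 0.248 FPKM in shLuci+OGD and 0.435 ± 0.0587 FPKM in shLuci, and Ibsp and Runx2 were not called. Of 3 chondrocyte markers 2 were listed, of which Sox9, a transcription factor of cartilage, averaged 17.1 ± 1.15 FPKM in shLuci+OGD and 39.4 ± 2.21 FPKM in shLuci (log2 change -1.18) and Acan, the proteoglycan aggrecan, was not called. Of 6 adipocyte markers 4 were listed, of which Cebpa was called higher (a call lost with quantile normalization) and Lpl lower. Fabp4 stood at 2.21, 1.55 and 0.971 FPKM in shLuci+OGD and was listed at 0 in all 3 shLuci libraries, so no fold is given. Of 7 endothelial markers Tek alone was listed, below 1 FPKM.

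The deprived cells differed from their controls in 2564 of 11515 tested genes, which is 22.3%, with 1507 higher (13.1%) and 1057 lower (9.18%). Of these, 658 differed at least 2-fold, 310 higher and 348 lower. The 3 and 3 libraries did not overlap for 5569 genes, or 48.4%. The median gene lay at 0.08 on the log2 scale, and the split depended on scaling: scaling by median of ratios, under which the median gene lies at 0.01, gave 1125 higher and 1344 lower, and quantile normalization gave 1361 higher and 1487 lower. Without BMSC replicate 2, 3273 of the 11515 genes were called higher and 1986 lower. Gene lists are therefore described by their counts in each direction beside 22.3% and by their median beside 0.08. Their counts without BMSC replicate 2 belong beside the 3273 and 1986 of 11515 genes, not beside 22.3%. The lists hold 1315 genes, of which 1110 were listed in the table and 1064 passed the filter on low values. A gene may stand in more than 1 list. Several counts of 1 or 2 called members differed by 1 when a library was left out.

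The 15 largest rises had log2 changes of 2.61 to 3.74. These and the 15 largest falls were taken from called genes with a symbol, 5 FPKM or more as mean of the higher group and no overlap. Lack of overlap was thus fixed by the choice, and the gaps given for these genes are descriptions only. Olfm1 (chromosome 3, 6773813 to 6798737, in coordinates of the deposited table, whose build no source used here names) encodes olfactomedin 1, a secreted glycoprotein best known from the brain. It stood at 13.9, 13.9 and 12.0 FPKM in shLuci+OGD, against 0.473, 0.744 and 0.404 FPKM in shLuci (log2 change 3.74, SE 0.13, limma adjusted p = 9.75e-10). All 3 deprived libraries lay far above all 3 controls. Xdh (chromosome 6, 25149235 to 25211494) encodes xanthine dehydrogenase, which breaks down purines to uric acid and, in its oxidase form, releases superoxide and peroxide. Its level was 17.9, 18.6 and 19.0 FPKM in shLuci+OGD, against 1.03, 0.970 and 1.04 FPKM in shLuci (log2 change 3.65, SE 0.09, limma adjusted p = 9.54e-11), with no overlap and little spread in either group. Abcc9, the sulphonylurea receptor subunit of ATP-sensitive potassium channels, stood at 24.6, 22.6 and 26.1 FPKM in shLuci+OGD, against 1.74, 2.44 and 2.53 FPKM in shLuci (log2 change 3.20, SE 0.21, limma adjusted p = 2.5e-07). Aldh3a1 encodes an aldehyde dehydrogenase that clears products of lipid peroxidation, and it stood at 11.6, 14.9 and 11.7 FPKM in shLuci+OGD, against 0.836, 1.11 and 0.964 FPKM in shLuci. Each deprived library was more than 10 FPKM and each control close to 1 FPKM. Hspb8, a small heat shock protein that works with Bag3 in clearing misfolded proteins, stood at 49.6, 46.2 and 46.6 FPKM in shLuci+OGD, against 5.97, 6.82 and 5.78 FPKM in shLuci (log2 change 2.85, SE 0.08, limma adjusted p = 1.77e-10). Igfbp6, a secreted binding protein with a preference for IGF-II, stood at 82.7, 97.1 and 80.1 FPKM in shLuci+OGD, against 10.5, 10.2 and 9.05 FPKM in shLuci (log2 change 3.06, SE 0.22, limma adjusted p = 5.34e-07). The spread within the deprived group, whose highest library was replicate 2, was small beside the gap. Tgfbi, a matrix protein first found as a target of TGF-beta, averaged 60.8 ± 3.84 FPKM in shLuci+OGD and 9.24 ± 0.529 FPKM in shLuci (log2 change 2.65). Reln, the secreted guidance glycoprotein reelin, averaged 5.62 ± 1.01 FPKM in shLuci+OGD and 0.173 ± 0.0359 FPKM in shLuci (log2 change 3.17). Further rises of this size were Anpep (3.08), a surface aminopeptidase, Msln (2.98), the surface protein mesothelin, Gja4 (2.70), a connexin of gap junctions, Cdhr1 (2.70), a cadherin family member, Lyve1 (2.61), a hyaluronan receptor, and Prr15 and Pcp4l1 (3.08 and 2.70).

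The largest fall was that of Mgp (chromosome 4, 170856751 to 170860225), the gene of matrix Gla protein, which is secreted and inhibits calcification. Its level was 0.634, 0.434 and 0.579 FPKM in shLuci+OGD, against 185, 160.0 and 169.9 FPKM in shLuci (log2 change -7.36, SE 0.22, limma adjusted p = 2.6e-10). Every deprived library stood below 1 FPKM. Palmd, palmdelphin, a relative of the membrane-linked protein paralemmin, stood at 0.616, 0.526 and 0.693 FPKM in shLuci+OGD, against 17.5, 17.6 and 19.1 FPKM in shLuci (log2 change -4.06, SE 0.14, limma adjusted p = 5.16e-10). S100a16, a calcium-binding protein, stood at 0.911, 1.22 and 1.49 FPKM in shLuci+OGD, against 27.1, 24.7 and 23.4 FPKM in shLuci. The groups were far apart in each of these genes. Rgs16, which shortens signals of G protein-coupled receptors, stood at 12.4, 12.4 and 11.8 FPKM in shLuci+OGD, against 133, 121 and 117 FPKM in shLuci (log2 change -3.29, SE 0.07, limma adjusted p = 3.57e-11). Slc16a3, the monocarboxylate transporter MCT4 through which glycolytic cells export lactate, stood at 0.129, 0.110 and 0.0736 FPKM in shLuci+OGD, against 6.71, 6.15 and 5.01 FPKM in shLuci (log2 change -3.41, SE 0.15, limma adjusted p = 8.74e-09). Every deprived library stood below 1 FPKM. Apoe, the lipid carrier apolipoprotein E, averaged 0.569 ± 0.141 FPKM in shLuci+OGD and 12.8 ± 0.733 FPKM in shLuci (log2 change -3.64). Nov, a matricellular protein of the CCN family, averaged 6.995 ± 0.172 FPKM in shLuci+OGD and 64.4 ± 2.01 FPKM in shLuci (log2 change -3.11). Fstl3, a secreted antagonist of activin, averaged 2.36 ± 0.487 FPKM in shLuci+OGD and 25.5 ± 0.931 FPKM in shLuci (log2 change -3.20). Falls of similar size were found for Wfdc1 (-3.91), a secreted protein with a protease inhibitor domain, Rassf4 (-3.30), a member of the Ras-association family, Aard (-3.71) and Parm1 (-3.49). Rpl39l (log2 change -5.00) has a near-identical relative, Rpl39, so reads may have been shared between them and its value is uncertain. The remaining 2 of the 15 largest falls were Fos and Fosb, described with the immediate early genes. Limma's largest adjusted p among these 30 genes was 1.56e-05, which describes genes chosen because they were called and did not overlap.

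**Figure D1:**
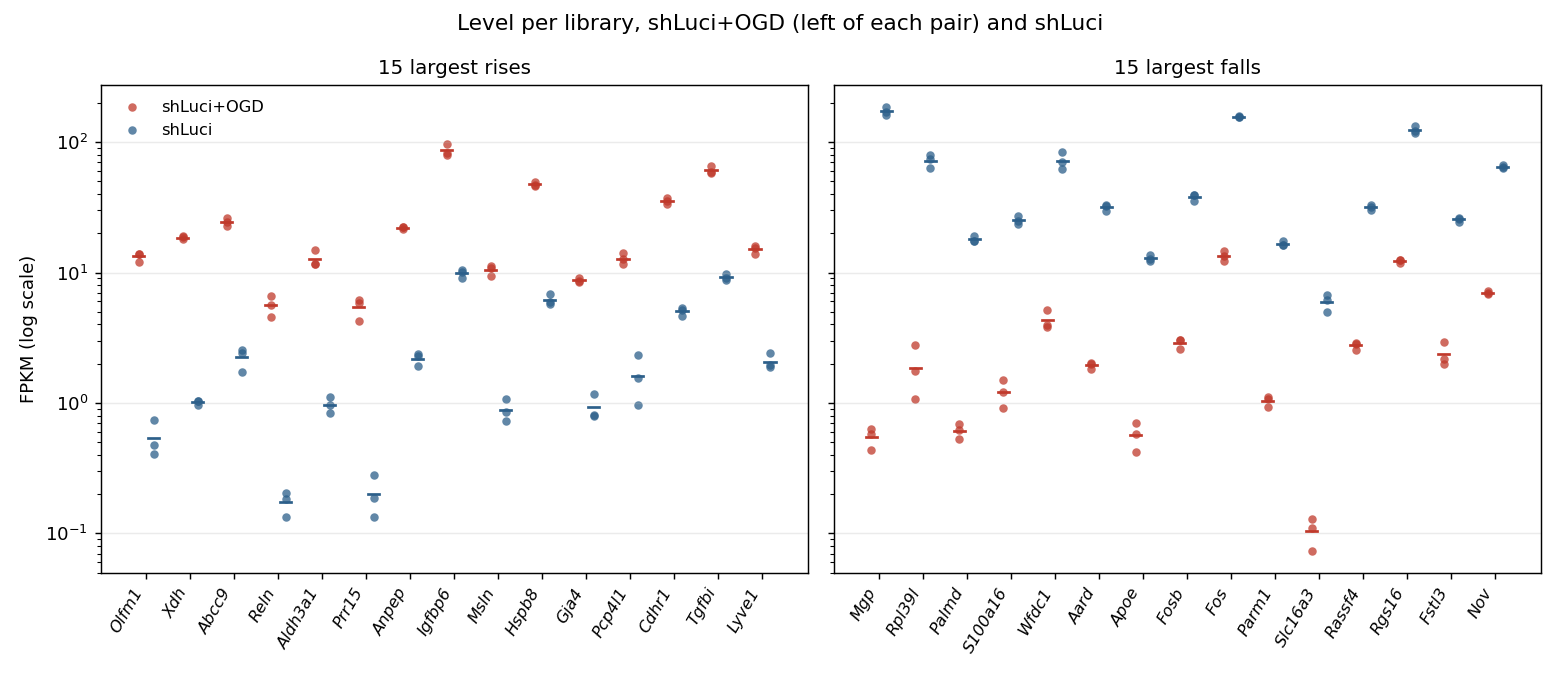
FPKM per library on a log axis for the 15 largest rises and the 15 largest falls among genes that were called, had 5 FPKM or more as mean of the higher group and did not overlap. Each point is a library, shLuci+OGD to the left of shLuci, and bars are means of 3. The levels of Mgp in shLuci+OGD lie below 1 FPKM in all 3 libraries, and those of Olfm1 in shLuci do too.

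Immediate early genes, which growth factors and serum switch on within minutes, had the largest share of falls among the 62 lists. Of 15 tested genes in this list, 0 were called higher and 12 lower (0 and 13 without BMSC replicate 2), with a median log2 change of -1.004. Fos, which pairs with Jun to form the transcription factor AP-1, stood at 12.3, 13.4 and 14.5 FPKM in shLuci+OGD, against 156, 158 and 156 FPKM in shLuci (log2 change -3.50, SE 0.08, limma adjusted p = 3.57e-11). Fosb, its close relative, stood at 2.60, 3.03 and 3.03 FPKM in shLuci+OGD, against 39.0, 39.0 and 35.6 FPKM in shLuci (log2 change -3.50, SE 0.13, limma adjusted p = 1.35e-09). No deprived library came near the lowest control in either gene. Egr1, a zinc-finger transcription factor, stood at 28.3, 29.0 and 29.3 FPKM in shLuci+OGD, against 141, 131 and 123 FPKM in shLuci (log2 change -2.17, SE 0.08, limma adjusted p = 8.61e-10). Egr2, a relative of Egr1, averaged 0.266 ± 0.0518 FPKM in shLuci+OGD and 3.69 ± 0.0333 FPKM in shLuci (log2 change -2.45). Nr4a1, an orphan nuclear receptor, averaged 5.89 ± 0.691 FPKM in shLuci+OGD and 27.2 ± 2.77 FPKM in shLuci (log2 change -2.12). Klf2 and Btg2, a Kruppel-like factor and an antiproliferative factor, fell by 1.31 and 1.32 on the log2 scale. Cyr61, an abundant secreted CCN protein, averaged 338 ± 28.9 FPKM in shLuci+OGD and 700.3 ± 46.2 FPKM in shLuci (log2 change -1.05). Myc, which drives growth, averaged 12.3 ± 1.21 FPKM in shLuci+OGD and 19.3 ± 0.727 FPKM in shLuci (log2 change -0.64). Among the 9 tested AP-1 factors, 0 were called higher and 5 lower (0 and 6 without BMSC replicate 2), with a median log2 change of -0.40. Jun averaged 63.9 ± 1.57 FPKM in shLuci+OGD and 93.5 ± 6.29 FPKM in shLuci (log2 change -0.55). Atf3, which stress also induces, averaged 2.64 ± 0.137 FPKM in shLuci+OGD and 4.74 ± 0.505 FPKM in shLuci (log2 change -0.74). Junb was called lower, at 59.96 ± 4.06 FPKM in shLuci+OGD and 70.0 ± 0.727 FPKM in shLuci (log2 change -0.22), a call lost with common-total scaling and without shLuci+OGD replicate 3 or shLuci replicate 1, 2 or 3.

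Several of these genes carry a CArG box, the binding motif of serum response factor, in the 250 bases before their start in RefSeq's rat assembly GRCr8. The motif was searched on both strands as CCWWWWWWGG, with W for A or T, and a match is a description of the sequence only. It was found in 412 of 27457 rat promoters of that length, or 1.5%, and in 4 of the 11 promoters in the table that belong to the 17 called genes of the 2 lists. Those 4 are shown because they are the ones in which the falling group shares a motif, and were chosen after the values were seen; the capitals mark each CArG box. Egr1 is at chr18:26736828-26737077 on the plus strand. Egr2 is at chr20:21054442-21054691, Klf6 at chr17:69458479-69458728 and Zfp36 at chr1:92799109-92799358, all on the minus strand.
Egr1: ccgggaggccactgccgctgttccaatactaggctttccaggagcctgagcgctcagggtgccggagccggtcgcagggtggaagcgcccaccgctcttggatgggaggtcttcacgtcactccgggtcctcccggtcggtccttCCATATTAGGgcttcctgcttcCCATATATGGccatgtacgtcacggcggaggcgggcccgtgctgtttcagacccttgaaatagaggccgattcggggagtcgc
Egr2: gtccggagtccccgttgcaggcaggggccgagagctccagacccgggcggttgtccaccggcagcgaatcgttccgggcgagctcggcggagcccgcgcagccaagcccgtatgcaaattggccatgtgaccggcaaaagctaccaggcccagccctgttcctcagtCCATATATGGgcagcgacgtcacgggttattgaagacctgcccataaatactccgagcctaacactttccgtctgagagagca
Klf6: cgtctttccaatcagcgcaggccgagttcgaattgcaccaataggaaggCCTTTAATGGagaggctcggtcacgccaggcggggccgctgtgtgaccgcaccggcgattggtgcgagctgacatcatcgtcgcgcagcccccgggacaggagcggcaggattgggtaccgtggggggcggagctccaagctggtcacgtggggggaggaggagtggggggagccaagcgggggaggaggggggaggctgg
Zfp36: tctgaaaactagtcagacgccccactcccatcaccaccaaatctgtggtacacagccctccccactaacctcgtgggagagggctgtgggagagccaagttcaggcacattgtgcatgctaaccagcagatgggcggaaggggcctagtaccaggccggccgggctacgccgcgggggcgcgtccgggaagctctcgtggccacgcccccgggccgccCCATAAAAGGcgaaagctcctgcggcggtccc
In the Egr1 promoter the boxes end 96 and 74 bases before the start, and in Egr2 the box ends 74 bases before it. Klf6, another Kruppel-like factor, fell by 0.76 on the log2 scale, and Zfp36, which destabilises inflammatory transcripts, fell by 0.44 (a call lost with common-total scaling). The box was found in 0 of the 6 promoters in the table that belong to the 10 contractile genes called lower. Only the strict form within 250 bases was searched, so this count does not show that these genes lack a box.

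Feedback inhibitors of the ERK pathway, a route to these genes, went both ways: of 11 tested, 3 were called higher and 4 lower (3 and 4 without BMSC replicate 2), with a median log2 change of 0.09. Dusp1, a phosphatase that is itself an immediate early gene, stood at 69.3, 73.3 and 68.5 FPKM in shLuci+OGD, against 139.9, 135 and 136 FPKM in shLuci (log2 change -0.96, SE 0.06, limma adjusted p = 1.9e-07). The groups lay far apart beside their spread. Dusp4 averaged 0.230 ± 0.0594 FPKM in shLuci+OGD and 3.36 ± 0.436 FPKM in shLuci (log2 change -2.40) and Spry4 averaged 8.74 ± 0.163 FPKM in shLuci+OGD and 21.7 ± 0.661 FPKM in shLuci (log2 change -1.26). Dusp5, a nuclear ERK phosphatase, averaged 8.88 ± 0.674 FPKM in shLuci+OGD and 5.64 ± 0.426 FPKM in shLuci (log2 change 0.61). Dusp6, the cytosolic ERK phosphatase, averaged 60.3 ± 1.53 FPKM in shLuci+OGD and 56.5 ± 0.302 FPKM in shLuci (log2 change 0.09) and was not called.

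**Figure D2:**
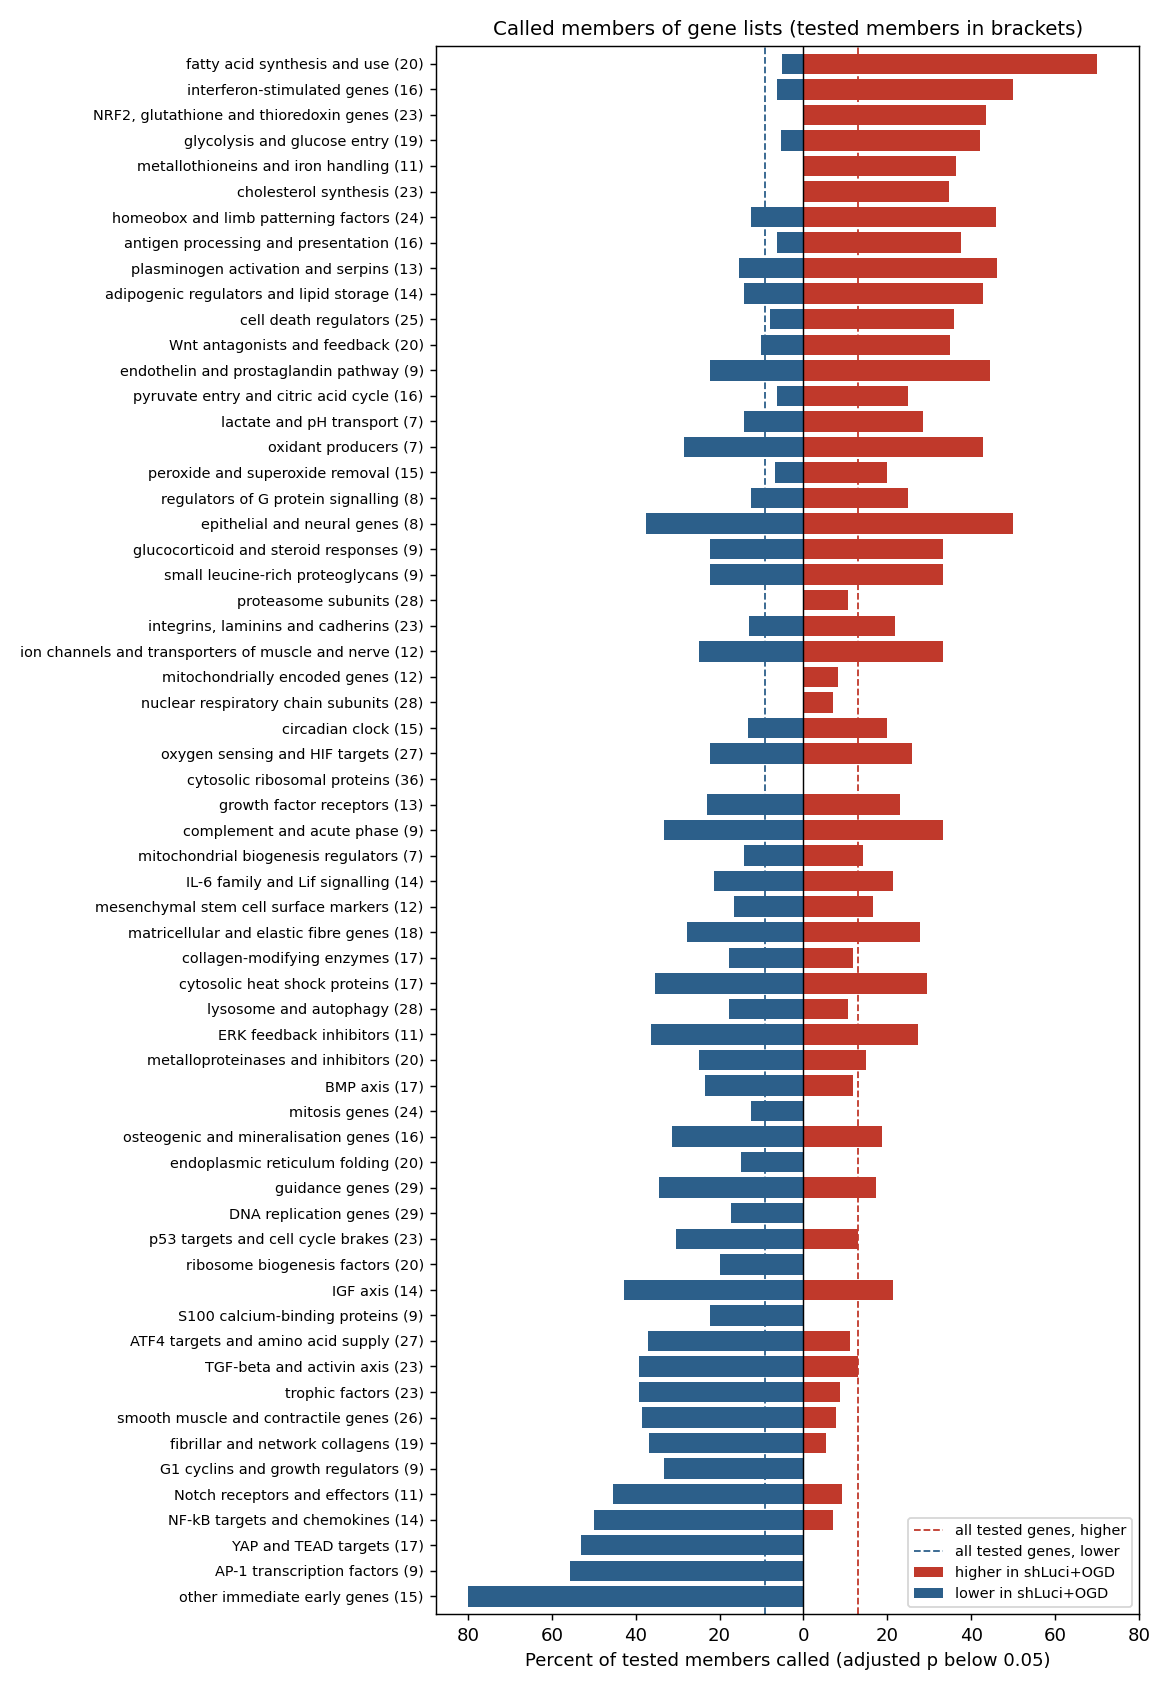
Percent of the tested members of gene lists called higher (red, to the right) or lower (blue, to the left) in shLuci+OGD against shLuci, with the number of tested members in brackets and dashed lines for all tested genes (13.1% and 9.18%). Other immediate early genes show 12 of 15 members lower and 0 higher, and fatty acid genes 14 of 20 higher.

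Genes of oxygen sensing went in both directions 24 h after the deprivation ended. Of 27 tested HIF targets and oxygen sensors, 7 were called higher and 6 lower (9 and 8 without BMSC replicate 2), with a median log2 change of 0.12, and under median-of-ratios scaling the balance turned to 5 higher and 6 lower. Ndrg1 and Mxi1, a stress-induced growth regulator and a Myc antagonist, rose by 1.05 and 0.88 on the log2 scale. Adm, the vasodilator peptide adrenomedullin, averaged 9.87 ± 0.490 FPKM in shLuci+OGD and 6.002 ± 0.143 FPKM in shLuci (log2 change 0.67). Ero1a, an oxidase that forms disulphide bonds, averaged 27.1 ± 1.40 FPKM in shLuci+OGD and 19.7 ± 1.47 FPKM in shLuci (log2 change 0.45). Vegfa, the main angiogenic factor, stood at 30.4, 30.2 and 27.3 FPKM in shLuci+OGD, against 73.4, 76.7 and 75.6 FPKM in shLuci (log2 change -1.35, SE 0.25, limma adjusted p = 0.00174). Car9, an extracellular carbonic anhydrase that is a classic HIF target, averaged 80.8 ± 5.89 FPKM in shLuci+OGD and 171 ± 10.6 FPKM in shLuci (log2 change -1.08). Both were lower in every deprived library than in any control. Hif1a, the oxygen-regulated subunit itself, averaged 54.4 ± 4.09 FPKM in shLuci+OGD and 37.2 ± 4.28 FPKM in shLuci (log2 change 0.55) and was not called, although it was called without BMSC replicate 2. Egln1, the main oxygen sensor that marks HIF for destruction, averaged 34.4 ± 3.80 FPKM in shLuci+OGD and 36.5 ± 3.45 FPKM in shLuci (log2 change -0.08) and was not called. Slc2a1, the glucose transporter GLUT1, averaged 28.9 ± 2.20 FPKM in shLuci+OGD and 31.1 ± 2.70 FPKM in shLuci (log2 change -0.11) and was not called.

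Glycolytic enzymes that were called were mostly higher, in small steps. Of 19 tested, 8 were called higher and 1 lower (10 and 2 without BMSC replicate 2), with a median log2 change of 0.27. With a library left out, the number called higher was 3 without shLuci+OGD replicate 2 and 5 without shLuci+OGD replicate 3 or shLuci replicate 2 or 3, and median-of-ratios scaling gave 3 higher and 2 lower. Pfkm, the muscle form of phosphofructokinase, stood at 31.1, 33.3 and 29.99 FPKM in shLuci+OGD, against 17.01, 16.2 and 15.7 FPKM in shLuci (log2 change 0.93, SE 0.07, limma adjusted p = 1e-06). Aldoc, an aldolase, averaged 3.69 ± 0.411 FPKM in shLuci+OGD and 1.74 ± 0.271 FPKM in shLuci (log2 change 0.90). Tpi1, which interconverts the triose phosphates, averaged 198 ± 8.80 FPKM in shLuci+OGD and 154 ± 5.65 FPKM in shLuci (log2 change 0.36) (a call lost with median-of-ratios scaling). Pkm, pyruvate kinase, averaged 759 ± 33.2 FPKM in shLuci+OGD and 562 ± 14.0 FPKM in shLuci (log2 change 0.43) (a call lost with common-total scaling or quantile normalization and without shLuci+OGD replicate 2). In the mitochondrion, Sdha, a subunit of succinate dehydrogenase, averaged 60.3 ± 2.17 FPKM in shLuci+OGD and 41.5 ± 1.97 FPKM in shLuci (log2 change 0.53) (a call lost with common-total scaling). Of 28 nuclear genes of the respiratory chain, 2 were called higher and 0 lower (8 and 0 without BMSC replicate 2), with a median log2 change of 0.11. At 7.14% called, this list lay below the 22.3% of all tested genes. Its 8 without BMSC replicate 2 stand beside 3273 of all 11515 tested genes called higher in that fit. The 12 genes encoded in mitochondrial DNA had a median log2 change of 0.23, and Mt-nd4 was called, at 1307 ± 127 FPKM in shLuci+OGD and 937 ± 119 FPKM in shLuci (log2 change 0.48) (a call lost with quantile normalization).

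Of the 62 lists, that of fatty acid metabolism had the largest share of rises. Of 20 tested genes of fatty acid synthesis and use, 14 were called higher and 1 lower (17 and 1 without BMSC replicate 2), with a median log2 change of 0.55. Hadha, a subunit of the mitochondrial trifunctional protein that carries out fatty acid oxidation, stood at 98.3, 101 and 94.8 FPKM in shLuci+OGD, against 63.7, 62.1 and 61.2 FPKM in shLuci (log2 change 0.65, SE 0.05, limma adjusted p = 2.08e-06). Hadhb, its partner subunit, averaged 147 ± 17.4 FPKM in shLuci+OGD and 89.3 ± 4.35 FPKM in shLuci (log2 change 0.71). The 2 subunits rose by similar amounts. Acadvl and Acadm, which start the oxidation of long and medium chains, rose by 0.45 and 0.56 on the log2 scale. On the side of synthesis, Scd, which introduces a double bond into saturated chains, stood at 28.1, 24.7 and 30.7 FPKM in shLuci+OGD, against 8.60, 9.70 and 11.6 FPKM in shLuci (log2 change 1.44, SE 0.20, limma adjusted p = 0.000198). Fads1, another desaturase, averaged 84.7 ± 1.41 FPKM in shLuci+OGD and 59.0 ± 0.387 FPKM in shLuci (log2 change 0.52). Fasn, fatty acid synthase, averaged 51.1 ± 4.97 FPKM in shLuci+OGD and 34.8 ± 2.80 FPKM in shLuci (log2 change 0.55) (a call lost with common-total scaling and without shLuci+OGD replicate 3 or shLuci replicate 1). Of 23 tested genes of cholesterol synthesis, 8 were called higher and 0 lower (15 and 0 without BMSC replicate 2), with a median log2 change of 0.21. With a library left out, the number called higher was 4 without shLuci replicate 2 and 5 without shLuci+OGD replicate 1 or 3 or shLuci replicate 3. Srebf2, the main transcription factor of the pathway, averaged 44.1 ± 3.06 FPKM in shLuci+OGD and 29.5 ± 1.60 FPKM in shLuci (log2 change 0.57). Lpin1, a phosphatidate phosphatase, rose by 1.84 and G0s2, an inhibitor of fat breakdown, by 2.00 on the log2 scale, whereas Lpl, lipoprotein lipase, fell by 1.88.

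Genes that produce oxidants went both ways, and those that deal with electrophiles rose where they were called. Of 7 tested oxidant producers, 3 were called higher and 2 lower (3 and 2 without BMSC replicate 2), with a median log2 change of 0.41. Nox4, an NADPH oxidase that releases peroxide, stood at 1.22, 0.936 and 1.33 FPKM in shLuci+OGD, against 5.31, 5.39 and 6.47 FPKM in shLuci (log2 change -1.91, SE 0.12, limma adjusted p = 1.2e-07). Cyba, the membrane partner of several NADPH oxidases, stood at 53.7, 64.7 and 55.8 FPKM in shLuci+OGD, against 176, 160.3 and 146 FPKM in shLuci (log2 change -1.46, SE 0.26, limma adjusted p = 0.00109). Both oxidase subunits were lower in every deprived library, whereas Xdh was higher. Aox1, aldehyde oxidase, averaged 2.85 ± 0.151 FPKM in shLuci+OGD and 0.641 ± 0.0781 FPKM in shLuci (log2 change 1.55). Sod3, the extracellular superoxide dismutase, stood at 5.18, 4.66 and 4.59 FPKM in shLuci+OGD, against 31.9, 30.9 and 26.3 FPKM in shLuci (log2 change -2.50, SE 0.13, limma adjusted p = 4e-08). Sod2, the mitochondrial form, averaged 37.5 ± 2.49 FPKM in shLuci+OGD and 28.1 ± 0.728 FPKM in shLuci (log2 change 0.41). Gpx3, a secreted glutathione peroxidase, averaged 16.3 ± 0.681 FPKM in shLuci+OGD and 9.66 ± 1.01 FPKM in shLuci (log2 change 0.72). Secreted and mitochondrial dismutase thus differed in direction. Of 23 tested NRF2, glutathione and thioredoxin genes, 10 were called higher and 0 lower (14 and 3 without BMSC replicate 2), with a median log2 change of 0.35. Nqo1, a quinone reductase and standard NRF2 target, stood at 279.8, 323 and 298 FPKM in shLuci+OGD, against 159, 150.2 and 147 FPKM in shLuci (log2 change 0.98, SE 0.11, limma adjusted p = 3.89e-05). Gsta1, a glutathione transferase from a family of close relatives among which reads may be shared, averaged 61.6 ± 9.05 FPKM in shLuci+OGD and 17.5 ± 1.40 FPKM in shLuci (log2 change 1.78). Txnip, which binds thioredoxin and follows glucose supply, averaged 67.4 ± 1.89 FPKM in shLuci+OGD and 32.1 ± 1.62 FPKM in shLuci (log2 change 1.06). Hmox1, haem oxygenase 1, averaged 49.3 ± 3.81 FPKM in shLuci+OGD and 38.8 ± 2.42 FPKM in shLuci (log2 change 0.34) (a call lost with median-of-ratios scaling and without shLuci+OGD replicate 2 or shLuci replicate 3). Slc7a11, the cystine transporter, averaged 1.40 ± 0.217 FPKM in shLuci+OGD and 1.64 ± 0.232 FPKM in shLuci (log2 change -0.18) and was not called.

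Of 11 tested genes of metal handling, 4 were called higher and 0 lower (5 and 1 without BMSC replicate 2), with a median log2 change of 0.16. Mt2A, a metallothionein that binds zinc and copper, stood at 126, 130.2 and 102 FPKM in shLuci+OGD, against 24.8, 15.8 and 22.4 FPKM in shLuci (log2 change 2.49, SE 0.35, limma adjusted p = 0.000187). Each deprived library was far above the highest control. Steap3, a metalloreductase, averaged 28.7 ± 2.48 FPKM in shLuci+OGD and 9.75 ± 0.720 FPKM in shLuci (log2 change 1.51), whereas Tfrc, the transferrin receptor, averaged 25.2 ± 2.87 FPKM in shLuci+OGD and 28.8 ± 4.16 FPKM in shLuci (log2 change -0.18) and was not called. The 250 bases before the start of Mt2A (GRCr8, chr19:10838709-10838958, minus strand, RefSeq) are shown because metallothioneins are the textbook targets of the metal-responsive transcription factor. The cores of its element, TGCACNC or TGCGCNC on either strand, are in capitals and stand there 4 times.
Mt2A: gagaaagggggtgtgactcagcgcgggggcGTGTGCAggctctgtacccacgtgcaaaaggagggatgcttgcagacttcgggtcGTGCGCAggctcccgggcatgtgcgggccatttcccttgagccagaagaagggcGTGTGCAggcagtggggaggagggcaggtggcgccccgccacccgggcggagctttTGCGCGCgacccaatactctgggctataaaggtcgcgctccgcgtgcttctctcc
Such cores are common, and were found in 5829 of 27457 promoters, or 21.2%.

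Stress genes of nutrient supply that were called were mostly lower at this time, and the few folding genes of the endoplasmic reticulum that were called were lower. Of 27 tested ATF4 targets, which respond to lack of amino acids and to unfolded proteins, 3 were called higher and 10 lower (4 and 14 without BMSC replicate 2), with a median log2 change of -0.15. Slc7a5 and Slc3a2 encode the light and heavy chains of a transporter for large neutral amino acids. They averaged 42.6 ± 4.01 FPKM in shLuci+OGD and 74.9 ± 4.03 FPKM in shLuci (log2 change -0.81) for the light chain, and 77.1 ± 4.65 FPKM in shLuci+OGD and 131 ± 7.17 FPKM in shLuci (log2 change -0.76) for the heavy chain. Asns, asparagine synthetase, averaged 52.8 ± 1.27 FPKM in shLuci+OGD and 72.9 ± 1.17 FPKM in shLuci (log2 change -0.46). Ppp1r15a, which restores translation after stress, averaged 23.4 ± 0.917 FPKM in shLuci+OGD and 39.2 ± 2.73 FPKM in shLuci (log2 change -0.73). Against that direction, Chac1, which degrades glutathione, averaged 35.3 ± 3.22 FPKM in shLuci+OGD and 25.9 ± 2.44 FPKM in shLuci (log2 change 0.44) (a call lost with median-of-ratios scaling). Atf4 itself averaged 247 ± 12.5 FPKM in shLuci+OGD and 273 ± 21.4 FPKM in shLuci (log2 change -0.14), and Ddit3, the stress factor CHOP, averaged 66.7 ± 5.14 FPKM in shLuci+OGD and 63.4 ± 5.22 FPKM in shLuci (log2 change 0.07); neither was called. Of 20 tested folding factors of the endoplasmic reticulum, 0 were called higher and 3 lower (4 and 11 without BMSC replicate 2), with a median log2 change of -0.18. At 15% called, this list lay below the 22.3% of all tested genes. Hspa5, the chaperone BiP, stood at 273, 274 and 272 FPKM in shLuci+OGD, against 383, 357 and 369 FPKM in shLuci (log2 change -0.44, SE 0.06, limma adjusted p = 0.000148). Calr, calreticulin, averaged 526 ± 26.0 FPKM in shLuci+OGD and 707 ± 40.1 FPKM in shLuci (log2 change -0.43). Cytosolic heat shock genes split: of 17 tested, 5 were called higher and 6 lower (8 and 6 without BMSC replicate 2), with a median log2 change of 0.17. With a library left out, the number called higher was 3 without shLuci+OGD replicate 2 or 3 or shLuci replicate 2 or 3, and quantile normalization gave 5 higher and 4 lower. Cryab, the small heat shock protein alpha-B crystallin, stood at 30.7, 34.2 and 33.7 FPKM in shLuci+OGD, against 241, 214 and 211 FPKM in shLuci (log2 change -2.74, SE 0.20, limma adjusted p = 5.25e-07), opposite to its relative Hspb8. Bag3, the partner of Hspb8, averaged 56.0 ± 3.55 FPKM in shLuci+OGD and 40.7 ± 2.44 FPKM in shLuci (log2 change 0.46). Hspa1b, an inducible HSP70 with a near-identical copy, averaged 12.0 ± 0.0617 FPKM in shLuci+OGD and 22.3 ± 1.08 FPKM in shLuci (log2 change -0.87).

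Several genes that promote apoptosis and necroptosis rose. Of 25 tested cell death regulators, 9 were called higher and 2 lower (9 and 5 without BMSC replicate 2), with a median log2 change of 0.13. That list was not split into promoters and inhibitors of cell death. Bcl2l11, the BH3-only protein BIM that triggers mitochondrial apoptosis, stood at 7.83, 7.78 and 7.61 FPKM in shLuci+OGD, against 1.30, 1.53 and 1.54 FPKM in shLuci (log2 change 2.08, SE 0.14, limma adjusted p = 2.99e-07). Bmf, another BH3-only protein, averaged 4.16 ± 0.395 FPKM in shLuci+OGD and 0.878 ± 0.141 FPKM in shLuci (log2 change 1.76). Bid, which links death receptors to mitochondria, averaged 11.8 ± 0.464 FPKM in shLuci+OGD and 4.58 ± 0.392 FPKM in shLuci (log2 change 1.28). All 3 were higher in every deprived library than in any control. Mlkl and Ripk3, the effector and the kinase of necroptosis, averaged 7.08 ± 0.234 FPKM in shLuci+OGD and 3.67 ± 0.0466 FPKM in shLuci (log2 change 0.86), and 83.3 ± 4.94 FPKM in shLuci+OGD and 50.7 ± 1.55 FPKM in shLuci (log2 change 0.71), in that order. Pmaip1, the BH3-only protein NOXA, fell by 0.83 on the log2 scale. Bcl2, which protects mitochondria, averaged 1.12 ± 0.158 FPKM in shLuci+OGD and 1.49 ± 0.267 FPKM in shLuci (log2 change -0.30) and was not called. Bax, which permeabilises mitochondria, averaged 52.7 ± 6.29 FPKM in shLuci+OGD and 65.2 ± 5.09 FPKM in shLuci (log2 change -0.31) and was called lower without BMSC replicate 2.

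DNA replication and mitosis genes were called less often than all tested genes, at 17.2% and 12.5% beside 22.3%, and those called were lower. Of 29 tested DNA replication genes, 0 were called higher and 5 lower (0 and 11 without BMSC replicate 2), with a median log2 change of -0.11. Ccne1, a cyclin of S phase entry, averaged 14.1 ± 1.05 FPKM in shLuci+OGD and 24.1 ± 0.915 FPKM in shLuci (log2 change -0.75). Cdc6, which licenses replication origins, averaged 10.8 ± 0.623 FPKM in shLuci+OGD and 16.5 ± 0.941 FPKM in shLuci (log2 change -0.60). Of 24 mitosis genes, 0 were called higher and 3 lower (2 and 8 without BMSC replicate 2), with a median log2 change of -0.08, and with a library left out, the number called lower was 1 without shLuci+OGD replicate 3 or shLuci replicate 1, 2 or 3. Mki67, the proliferation marker Ki-67, averaged 35.6 ± 5.22 FPKM in shLuci+OGD and 39.5 ± 5.12 FPKM in shLuci (log2 change -0.15), and Pcna, the replication clamp, averaged 129 ± 10.6 FPKM in shLuci+OGD and 138 ± 3.19 FPKM in shLuci (log2 change -0.11); neither was called. Of 23 p53 targets and cell cycle brakes, 3 were called higher and 7 lower (6 and 11 without BMSC replicate 2), with a median log2 change of -0.15. Plk3, a stress-induced kinase, averaged 6.89 ± 0.173 FPKM in shLuci+OGD and 15.4 ± 1.38 FPKM in shLuci (log2 change -1.10). Gadd45a, a DNA damage gene, averaged 28.0 ± 0.748 FPKM in shLuci+OGD and 47.1 ± 4.15 FPKM in shLuci (log2 change -0.74). Btg1, an antiproliferative factor, stood at 226, 224 and 219.9 FPKM in shLuci+OGD, against 84.997, 88.3 and 83.2 FPKM in shLuci (log2 change 1.38, SE 0.09, limma adjusted p = 1.68e-07). The p53 target Cdkn1a, encoding the inhibitor p21, averaged 97.5 ± 6.29 FPKM in shLuci+OGD and 110.5 ± 9.13 FPKM in shLuci (log2 change -0.18) (not called, but called without BMSC replicate 2). None of 36 tested ribosomal protein genes was called, against 14 higher without BMSC replicate 2, while 3 were called higher with common-total scaling and 2 with quantile normalization. Without BMSC replicate 2, 3273 of all 11515 tested genes were called higher.

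Secreted signals that stem cells are studied for were mostly lower where they were called. Of 23 tested trophic factors, 2 were called higher and 9 lower (5 and 11 without BMSC replicate 2), with a median log2 change of -0.17. Gas6, the ligand of the TAM receptors that help clear dying cells, stood at 33.4, 38.3 and 35.7 FPKM in shLuci+OGD, against 151, 145 and 133 FPKM in shLuci (log2 change -1.98, SE 0.07, limma adjusted p = 9.75e-10). Cxcl12, the chemokine that retains haematopoietic cells in the marrow, stood at 6.93, 8.33 and 8.26 FPKM in shLuci+OGD, against 23.9, 26.1 and 24.9 FPKM in shLuci (log2 change -1.61, SE 0.13, limma adjusted p = 1.98e-06). Pdgfd, a platelet-derived growth factor, averaged 0.809 ± 0.0903 FPKM in shLuci+OGD and 6.25 ± 0.477 FPKM in shLuci (log2 change -2.37). In all 3 the deprived libraries lay below the controls. Hbegf, a ligand of the EGF receptor, averaged 37.2 ± 1.82 FPKM in shLuci+OGD and 71.0 ± 2.33 FPKM in shLuci (log2 change -0.93). Bdnf, brain-derived neurotrophic factor, averaged 4.96 ± 0.407 FPKM in shLuci+OGD and 4.54 ± 0.350 FPKM in shLuci (log2 change 0.12) and was not called, while Fgf2, a basic fibroblast growth factor, averaged 2.31 ± 0.775 FPKM in shLuci+OGD and 1.000 ± 0.0967 FPKM in shLuci (log2 change 0.87) (a call lost without shLuci+OGD replicate 3). Egfr, the EGF receptor, averaged 2.95 ± 0.456 FPKM in shLuci+OGD and 1.11 ± 0.178 FPKM in shLuci (log2 change 1.10). On the IGF axis, of 14 tested genes, 3 were called higher and 6 lower (3 and 6 without BMSC replicate 2), with a median log2 change of -0.13. Igf1, the ligand, averaged 0.0444 ± 0.0151 FPKM in shLuci+OGD and 1.56 ± 0.248 FPKM in shLuci (log2 change -1.91). Pappa, which cleaves binding proteins to free it, averaged 0.667 ± 0.254 FPKM in shLuci+OGD and 4.18 ± 1.23 FPKM in shLuci (log2 change -1.99). Igfbp2, a binding protein, averaged 8.91 ± 0.739 FPKM in shLuci+OGD and 2.56 ± 0.411 FPKM in shLuci (log2 change 1.63). Igf1r, the receptor, averaged 11.3 ± 1.43 FPKM in shLuci+OGD and 12.5 ± 2.04 FPKM in shLuci (log2 change -0.13) and was not called.

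Of the 3 TGF-beta ligands, Tgfb2 and Tgfb3 fell. Of 23 tested genes of the TGF-beta and activin axis, 3 were called higher and 9 lower (7 and 11 without BMSC replicate 2), with a median log2 change of -0.19. Tgfb2 stood at 35.9, 37.3 and 39.8 FPKM in shLuci+OGD, against 161, 166 and 156 FPKM in shLuci (log2 change -2.08, SE 0.07, limma adjusted p = 2.88e-10). Tgfb3, at the highest FPKM of the 3 ligands, stood at 167, 178 and 172 FPKM in shLuci+OGD, against 525, 520.3 and 499.5 FPKM in shLuci (log2 change -1.58, SE 0.07, limma adjusted p = 7.1e-09). Tgfb1 averaged 104 ± 7.61 FPKM in shLuci+OGD and 115 ± 10.7 FPKM in shLuci (log2 change -0.15) and was not called, so the ligands differed in their calls, a difference that was not itself tested. Tgfbr3, the co-receptor betaglycan, averaged 4.88 ± 0.146 FPKM in shLuci+OGD and 1.40 ± 0.147 FPKM in shLuci (log2 change 1.51). Ltbp3, which stores latent ligand in the matrix, averaged 39.2 ± 4.37 FPKM in shLuci+OGD and 21.6 ± 1.55 FPKM in shLuci (log2 change 0.84). Smad7, a feedback inhibitor, averaged 15.3 ± 0.803 FPKM in shLuci+OGD and 25.9 ± 0.982 FPKM in shLuci (log2 change -0.74). Of 17 genes of the BMP axis, 2 were called higher and 4 lower (4 and 7 without BMSC replicate 2), with a median log2 change of -0.03. Bmp4, a bone-forming ligand, stood at 3.50, 3.63 and 3.66 FPKM in shLuci+OGD, against 22.4, 20.4 and 20.8 FPKM in shLuci (log2 change -2.40, SE 0.07, limma adjusted p = 1.68e-10), and Grem1, an antagonist, rose by 1.26 on the log2 scale. Id1, a target of BMP signals, averaged 63.4 ± 8.98 FPKM in shLuci+OGD and 89.3 ± 8.997 FPKM in shLuci (log2 change -0.50) and was not called, although it was called without BMSC replicate 2. 20 Wnt genes were tested, of which 7 were called higher and 2 lower (9 and 5 without BMSC replicate 2), with a median log2 change of 0.28. Nkd1, a feedback inhibitor, averaged 9.34 ± 0.295 FPKM in shLuci+OGD and 1.72 ± 0.288 FPKM in shLuci (log2 change 2.16). Wnt10b, a ligand that favours bone over fat, averaged 5.89 ± 0.576 FPKM in shLuci+OGD and 0.940 ± 0.0764 FPKM in shLuci (log2 change 2.15). Sfrp4, a secreted antagonist, averaged 8.31 ± 0.372 FPKM in shLuci+OGD and 1.72 ± 0.344 FPKM in shLuci (log2 change 2.00). Axin2, the usual transcriptional readout of the pathway, averaged 2.43 ± 0.0990 FPKM in shLuci+OGD and 2.92 ± 0.271 FPKM in shLuci (log2 change -0.22) and was not called. Of 11 Notch genes, 1 was called higher and 5 lower (2 and 6 without BMSC replicate 2), with a median log2 change of -0.49. Hes1, a direct target of the receptor, stood at 27.4, 31.7 and 28.1 FPKM in shLuci+OGD, against 78.8, 70.7 and 59.3 FPKM in shLuci (log2 change -1.24, SE 0.11, limma adjusted p = 4.79e-06). Hey1 and Hey2, related repressors, fell by 2.15 and 1.54 on the log2 scale, and Notch3, a receptor, averaged 0.754 ± 0.0366 FPKM in shLuci+OGD and 2.46 ± 0.435 FPKM in shLuci (log2 change -1.23).

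Inflammatory and interferon genes moved apart. Of 14 tested NF-kB targets and chemokines, 1 was called higher and 7 lower (1 and 8 without BMSC replicate 2), with a median log2 change of -0.32, and with a library left out, the number called lower was 3 without shLuci+OGD replicate 1 and 4 without shLuci+OGD replicate 3 or shLuci replicate 2. Cxcl1, which attracts neutrophils, stood at 9.003, 10.3 and 9.75 FPKM in shLuci+OGD, against 37.9, 34.9 and 35.9 FPKM in shLuci (log2 change -1.85, SE 0.11, limma adjusted p = 9.84e-08). Ccl2, which attracts monocytes, averaged 13.1 ± 2.22 FPKM in shLuci+OGD and 22.7 ± 0.556 FPKM in shLuci (log2 change -0.79). Lif, a cytokine of the IL-6 family, stood at 2.23, 2.34 and 2.37 FPKM in shLuci+OGD, against 22.8, 22.6 and 24.6 FPKM in shLuci (log2 change -3.08, SE 0.42, limma adjusted p = 0.000144). Osmr, a receptor of that family, averaged 6.33 ± 1.41 FPKM in shLuci+OGD and 1.48 ± 0.455 FPKM in shLuci (log2 change 1.79). Il6 itself averaged 3.93 ± 1.42 FPKM in shLuci+OGD and 3.51 ± 0.239 FPKM in shLuci (log2 change 0.09) and was not called. Of 16 tested interferon-stimulated genes, 8 were called higher and 1 lower (11 and 1 without BMSC replicate 2), with a median log2 change of 0.62, and with a library left out, the number called higher was 5 without shLuci+OGD replicate 3 or shLuci replicate 1. Stat2, which carries the type I interferon signal, stood at 14.8, 15.03 and 15.8 FPKM in shLuci+OGD, against 7.08, 8.02 and 7.62 FPKM in shLuci (log2 change 0.96, SE 0.16, limma adjusted p = 0.000726), and Irf1 and Irf7, transcription factors of the same response, averaged 10.9 ± 1.02 FPKM in shLuci+OGD and 5.85 ± 0.641 FPKM in shLuci for Irf1, and 4.28 ± 0.681 FPKM in shLuci+OGD and 2.14 ± 0.0486 FPKM in shLuci for Irf7. Of 16 genes of antigen processing, 6 were called higher and 1 lower (10 and 1 without BMSC replicate 2), with a median log2 change of 0.41. Psmb8 and Psmb9, subunits of the immunoproteasome, rose by 1.40 and 1.04 on the log2 scale, Tap2, a peptide transporter, by 1.15, and Tapbp, which loads peptides, by 0.85. B2m, the light chain of class I molecules, averaged 190.5 ± 15.5 FPKM in shLuci+OGD and 185 ± 7.79 FPKM in shLuci (log2 change 0.04) and was not called. The macrophage marker Cd14, which averaged 12.4 ± 0.551 FPKM in shLuci+OGD and 7.37 ± 0.729 FPKM in shLuci (log2 change 0.71), moved with these lists, as did the neutrophil marker Ngp, while Cd68 and Fcer1g were not called. Their part in the lists was not tested. In vascular signalling, Edn1, the vasoconstrictor endothelin 1, stood at 3.40, 3.88 and 3.90 FPKM in shLuci+OGD, against 30.9, 33.2 and 33.3 FPKM in shLuci (log2 change -2.97, SE 0.21, limma adjusted p = 4.61e-07), while Ednra, its receptor, averaged 1.80 ± 0.136 FPKM in shLuci+OGD and 0.758 ± 0.0365 FPKM in shLuci (log2 change 0.87). Ptgs1, the constitutive prostaglandin synthase, averaged 12.4 ± 0.901 FPKM in shLuci+OGD and 1.66 ± 0.318 FPKM in shLuci (log2 change 2.59). Ptgs2, the inducible form, averaged 64.7 ± 4.90 FPKM in shLuci+OGD and 46.6 ± 5.26 FPKM in shLuci (log2 change 0.47) and was not called, although it was called without BMSC replicate 2.

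Many contractile genes and targets of YAP were lower. Of 26 tested contractile genes, 2 were called higher and 10 lower (6 and 17 without BMSC replicate 2), with a median log2 change of -0.33. Acta2, smooth muscle actin, stood at 1349.6, 1642 and 1504 FPKM in shLuci+OGD, against 3815, 3389 and 3205 FPKM in shLuci (log2 change -1.21, SE 0.13, limma adjusted p = 1.99e-05). Tagln, the actin-binding protein SM22, stood at 1298, 1519.9 and 1358 FPKM in shLuci+OGD, against 2920.4, 2584 and 2559 FPKM in shLuci (log2 change -0.95, SE 0.14, limma adjusted p = 0.000349). The groups did not overlap in either gene. Myl9, a myosin light chain, averaged 509 ± 22.2 FPKM in shLuci+OGD and 754 ± 36.7 FPKM in shLuci (log2 change -0.57). Actn4, an actin cross-linker, averaged 349 ± 21.1 FPKM in shLuci+OGD and 516 ± 23.1 FPKM in shLuci (log2 change -0.57). Cnn1, calponin, averaged 249 ± 12.9 FPKM in shLuci+OGD and 251 ± 8.90 FPKM in shLuci (log2 change -0.01) and was not called. Des, the muscle intermediate filament desmin, ran the other way at 3.12 ± 0.161 FPKM in shLuci+OGD and 0.348 ± 0.0734 FPKM in shLuci (log2 change 2.10). Of 17 tested targets of YAP and TEAD, which respond to cell spreading and stiffness, 0 were called higher and 9 lower (2 and 11 without BMSC replicate 2), with a median log2 change of -0.58. Ctgf, the best known of them, stood at 555, 663 and 655 FPKM in shLuci+OGD, against 1360.1, 1299 and 1264 FPKM in shLuci (log2 change -1.07, SE 0.12, limma adjusted p = 3.46e-05). Amotl2, a feedback inhibitor of YAP, averaged 80.3 ± 4.45 FPKM in shLuci+OGD and 173 ± 6.33 FPKM in shLuci (log2 change -1.10). Nuak2, a kinase, averaged 5.96 ± 0.304 FPKM in shLuci+OGD and 14.6 ± 0.684 FPKM in shLuci (log2 change -1.22).

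Matrix genes moved in both directions. Of 19 tested collagens, 1 was called higher and 7 lower (5 and 10 without BMSC replicate 2), with a median log2 change of -0.28, and with a library left out, the number called lower was 4 without shLuci+OGD replicate 2 or shLuci replicate 2 or 3. Col1a1, the main bone collagen, averaged 3615 ± 468 FPKM in shLuci+OGD and 4011 ± 271 FPKM in shLuci (log2 change -0.16) and was not called. Col3a1 averaged 1723 ± 133 FPKM in shLuci+OGD and 1376 ± 30.01 FPKM in shLuci (log2 change 0.32) (not called, but called without BMSC replicate 2). Col11a1, a fibril-nucleating chain, stood at 72.9, 62.0 and 73.6 FPKM in shLuci+OGD, against 174, 215 and 217 FPKM in shLuci (log2 change -1.53, SE 0.32, limma adjusted p = 0.00358). Col12a1, which coats fibrils, averaged 67.7 ± 10.9 FPKM in shLuci+OGD and 176 ± 31.4 FPKM in shLuci (log2 change -1.37) (a call lost without shLuci+OGD replicate 2 or shLuci replicate 2 or 3). Col6a2, a chain of the pericellular network, averaged 149 ± 7.94 FPKM in shLuci+OGD and 244 ± 13.7 FPKM in shLuci (log2 change -0.71). Spp1, osteopontin, stood at 1489, 1346 and 1307 FPKM in shLuci+OGD, against 575, 558 and 593 FPKM in shLuci (log2 change 1.26, SE 0.10, limma adjusted p = 1.81e-06). Thbs2, a thrombospondin, averaged 120.2 ± 7.03 FPKM in shLuci+OGD and 46.6 ± 4.91 FPKM in shLuci (log2 change 1.36). Tnc, tenascin C, fell by 1.01 on the log2 scale. Fbln2, fibulin 2, averaged 93.3 ± 5.85 FPKM in shLuci+OGD and 201 ± 9.41 FPKM in shLuci (log2 change -1.10). Mmp2, a gelatinase, stood at 103, 112 and 112 FPKM in shLuci+OGD, against 283, 287 and 270.0 FPKM in shLuci (log2 change -1.36, SE 0.07, limma adjusted p = 4.08e-08). Timp3, a matrix-bound inhibitor of metalloproteinases, averaged 1.49 ± 0.165 FPKM in shLuci+OGD and 6.65 ± 1.32 FPKM in shLuci (log2 change -1.83). Timp1 averaged 459 ± 27.8 FPKM in shLuci+OGD and 534 ± 33.0 FPKM in shLuci (log2 change -0.22) (not called, but called without BMSC replicate 2). Serpine2, an inhibitor of thrombin and plasminogen activators, averaged 234 ± 12.1 FPKM in shLuci+OGD and 91.6 ± 4.42 FPKM in shLuci (log2 change 1.35). Plau, urokinase, averaged 4.60 ± 0.733 FPKM in shLuci+OGD and 2.01 ± 0.213 FPKM in shLuci (log2 change 1.02). At the surface, Itga5, the fibronectin receptor subunit, averaged 119 ± 6.09 FPKM in shLuci+OGD and 52.7 ± 1.15 FPKM in shLuci (log2 change 1.17). Itga3, a laminin receptor subunit, averaged 49.5 ± 1.94 FPKM in shLuci+OGD and 28.3 ± 1.496 FPKM in shLuci (log2 change 0.80). Lama5, a laminin chain, averaged 14.1 ± 2.00 FPKM in shLuci+OGD and 2.96 ± 0.133 FPKM in shLuci (log2 change 2.07). Cdh2, N-cadherin, averaged 21.0 ± 1.204 FPKM in shLuci+OGD and 30.8 ± 0.870 FPKM in shLuci (log2 change -0.54). Of 29 tested guidance genes, 5 were called higher and 10 lower (9 and 15 without BMSC replicate 2), with a median log2 change of -0.40. Efnb1, an ephrin, stood at 7.42, 8.24 and 8.18 FPKM in shLuci+OGD, against 50.1, 50.6 and 50.7 FPKM in shLuci (log2 change -2.59, SE 0.08, limma adjusted p = 3.23e-10), and Slit3 and Robo2, a ligand and a receptor of a repulsive pathway, averaged 5.42 ± 0.276 FPKM in shLuci+OGD and 29.6 ± 2.23 FPKM in shLuci (log2 change -2.34), and 0.198 ± 0.0306 FPKM in shLuci+OGD and 4.30 ± 0.491 FPKM in shLuci (log2 change -2.78).

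Genes of stem cell identity and lineage did not move as a block. Of 12 tested surface markers, 2 were called higher and 2 lower (4 and 3 without BMSC replicate 2), with a median log2 change of 0.01. Cd44 averaged 56.4 ± 3.41 FPKM in shLuci+OGD and 58.4 ± 5.43 FPKM in shLuci (log2 change -0.05) and was not called. Cd9, a tetraspanin, averaged 198 ± 17.6 FPKM in shLuci+OGD and 100.3 ± 0.981 FPKM in shLuci (log2 change 0.97). Of 16 tested genes of bone formation, 3 were called higher and 5 lower (7 and 7 without BMSC replicate 2), with a median log2 change of -0.06. Alpl, alkaline phosphatase, stood at 4.27, 4.77 and 4.02 FPKM in shLuci+OGD, against 30.1, 30.3 and 25.9 FPKM in shLuci (log2 change -2.59, SE 0.10, limma adjusted p = 1.79e-09). Runx2, the master regulator of osteoblasts, averaged 5.57 ± 0.674 FPKM in shLuci+OGD and 5.03 ± 0.0889 FPKM in shLuci (log2 change 0.13) and was not called. Msx2 and Msx1, paired homeobox factors, differed in direction, with log2 changes of 1.96 and -0.79. Tnfrsf11b, osteoprotegerin, averaged 57.3 ± 9.36 FPKM in shLuci+OGD and 36.8 ± 5.51 FPKM in shLuci (log2 change 0.63) (not called, but called without BMSC replicate 2). Of 24 tested homeobox and limb factors, 11 were called higher and 3 lower (15 and 5 without BMSC replicate 2), with a median log2 change of 0.52. Hoxc6 averaged 21.3 ± 0.573 FPKM in shLuci+OGD and 6.92 ± 0.514 FPKM in shLuci (log2 change 1.55). Meis2 averaged 19.0 ± 0.645 FPKM in shLuci+OGD and 5.42 ± 0.622 FPKM in shLuci (log2 change 1.73). Tbx18 averaged 3.60 ± 0.300 FPKM in shLuci+OGD and 6.63 ± 0.254 FPKM in shLuci (log2 change -0.80), against that direction. Of 8 tested epithelial and neural genes, 4 were called higher and 3 lower (4 and 3 without BMSC replicate 2), with a median log2 change of 0.41. Nes and Tubb3, neural cytoskeletal genes, fell by 1.58 and 0.93 on the log2 scale, against that median. Among steroid responses, Sgk1, a kinase induced by corticosteroids, averaged 11.04 ± 0.617 FPKM in shLuci+OGD and 4.45 ± 0.416 FPKM in shLuci (log2 change 1.22). Tsc22d3, a glucocorticoid target, averaged 18.5 ± 1.53 FPKM in shLuci+OGD and 27.8 ± 0.851 FPKM in shLuci (log2 change -0.57). Ctsz and Ctsl, lysosomal proteases, moved apart, at 0.400 ± 0.0509 FPKM in shLuci+OGD and 7.03 ± 1.26 FPKM in shLuci (log2 change -3.05) for cathepsin Z, and 381 ± 49.96 FPKM in shLuci+OGD and 189 ± 3.10 FPKM in shLuci (log2 change 1.00) for cathepsin L. Polr2l, a small subunit of the RNA polymerases, was listed at 0 in replicate 1 of each group and at 14.8 and 12.6 FPKM in the other shLuci+OGD libraries and 17.4 and 14.96 FPKM in the other shLuci libraries, so no fold is given.

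The same deprivation was also applied to cells with the hairpin against Rac1, and the libraries titled shRac1+OGD and shRac1 are all separate from the pair above. There 1376 of 11515 genes were called (11.9%), 894 higher (7.76%) and 482 lower (4.19%). Of the 1507 genes higher in the shLuci pair, 201 were also higher in the shRac1 pair, which is 13.3% of the first list and 22.5% of the second list, and 147 were lower there. Of the 1057 genes lower in the shLuci pair, 141 were also lower (13.3% and 29.3% of the lists) and 223 were higher. A test of the difference between the 2 changes called 1922 genes (16.7%), 900 positive (7.82%) and 1022 negative (8.88%). Of the 2564 genes called in the shLuci pair, 1399 were among these, which is 54.6%. The change in the shLuci pair is part of that difference, so this share is a description and no independent result. Without BMSC replicate 2 that test called 4217 genes.

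Most immediate early genes fell under both hairpins. The list had 0 members higher and 12 lower in the shLuci pair, against 1 higher and 11 lower in the shRac1 pair, and 10 members were lower in both. AP-1 factors had 0 members higher and 5 lower in the shLuci pair, against 1 higher and 6 lower in the shRac1 pair, with 5 lower in both. Fos stood at 5.36 ± 0.528 FPKM in shRac1+OGD and 169 ± 7.15 FPKM in the libraries labelled shRac1, and the difference between the changes was called (difference of 1.36 on the log2 scale, SE 0.11, limma adjusted p = 2.25e-06), the fall being the larger in the shRac1 pair. Fosb stood at 1.95 ± 0.111 FPKM in shRac1+OGD and 24.9 ± 4.84 FPKM in the libraries labelled shRac1 and Egr1 at 25.3 ± 2.08 FPKM in shRac1+OGD and 143 ± 8.31 FPKM in the libraries labelled shRac1, and the difference was not called for either gene. Dusp1 stood at 77.3 ± 1.92 FPKM in shRac1+OGD and 179 ± 2.95 FPKM in the libraries labelled shRac1. Hes1 stood at 21.2 ± 0.720 FPKM in shRac1+OGD and 45.4 ± 1.44 FPKM in the libraries labelled shRac1, and the Notch list had 1 members higher and 5 lower in the shLuci pair, against 0 higher and 4 lower in the shRac1 pair. ATF4 targets had 3 members higher and 10 lower in the shLuci pair, against 0 higher and 12 lower in the shRac1 pair, and folding factors had 0 members higher and 3 lower in the shLuci pair, against 0 higher and 6 lower in the shRac1 pair.

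The 30 genes with the largest changes were chosen for the change in the shLuci pair, which is part of the difference between the pairs, so that 29 of them (all but Fosb) were called in the test of the difference is a description and no independent result. In the shRac1 pair, which the choice did not use, some went the opposite way. Of the 15 that rose, 6 were called lower in the shRac1 pair, and of the 15 that fell, 8 were called higher there. Among all genes called higher in the shLuci pair 9.75% were called lower in the shRac1 pair, and among all called lower 21.1% were called higher. Mgp stood at 9.63 ± 0.488 FPKM in shRac1+OGD, 0.409 ± 0.255 FPKM in the libraries labelled shRac1 and 7.41 ± 2.60 FPKM in BMSC (difference of -10.88 on the log2 scale, SE 0.32, limma adjusted p = 5.58e-10). Its level was below 1 FPKM in shLuci+OGD and in the libraries labelled shRac1, and highest in shLuci. Rgs16 stood at 36.7 ± 1.85 FPKM in shRac1+OGD, 14.7 ± 0.0839 FPKM in the libraries labelled shRac1 and 32.9 ± 2.47 FPKM in BMSC (difference of -4.57 on the log2 scale, SE 0.10, limma adjusted p = 7.84e-11). Slc16a3 stood at 1.24 ± 0.355 FPKM in shRac1+OGD, 0.311 ± 0.0547 FPKM in the libraries labelled shRac1 and 1.15 ± 0.1996 FPKM in BMSC (difference of -4.50 on the log2 scale, SE 0.22, limma adjusted p = 2.42e-08). In both genes shLuci again held the highest level and shLuci+OGD the lowest. Igfbp6 stood at 26.5 ± 2.80 FPKM in shRac1+OGD, 80.4 ± 4.01 FPKM in the libraries labelled shRac1 and 32.6 ± 15.02 FPKM in BMSC (difference of 4.65 on the log2 scale, SE 0.31, limma adjusted p = 4.17e-07), and Aldh3a1 at 1.87 ± 0.106 FPKM in shRac1+OGD, 8.11 ± 0.250 FPKM in the libraries labelled shRac1 and 0.616 ± 0.0955 FPKM in BMSC (difference of 5.02 on the log2 scale, SE 0.16, limma adjusted p = 1.25e-09). Their levels were high in shLuci+OGD and in the libraries labelled shRac1 and low in shLuci. Xdh, at 4.60 ± 0.135 FPKM in shRac1+OGD, 5.43 ± 0.222 FPKM in the libraries labelled shRac1 and 1.17 ± 0.204 FPKM in BMSC (difference of 3.87 on the log2 scale, SE 0.13, limma adjusted p = 1.42e-09), was highest in shLuci+OGD and near 1 FPKM in both shLuci and BMSC. Olfm1, at 4.04 ± 0.0882 FPKM in shRac1+OGD, 2.06 ± 0.237 FPKM in the libraries labelled shRac1 and 1.14 ± 0.193 FPKM in BMSC (difference of 2.91 on the log2 scale, SE 0.19, limma adjusted p = 3.04e-07), rose in both pairs, with log2 changes of 3.74 for shLuci and 0.83 for shRac1. Outside the 30, Galnt3, an enzyme that starts O-glycans, and Kif26b, an atypical kinesin, were among the 10 largest differences between the changes, at 0.542 ± 0.113 FPKM in shLuci+OGD and 7.62 ± 0.355 FPKM in shLuci (log2 change -2.97) for Galnt3 and 0.619 ± 0.0439 FPKM in shLuci+OGD and 8.04 ± 0.846 FPKM in shLuci (log2 change -2.93) for Kif26b.

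The position of the other undeprived groups was read for these 30 genes, which were chosen for their difference between shLuci+OGD and shLuci, so the counts describe them only. On the log2 scale the libraries labelled shRac1 lay nearer to shLuci+OGD than to shLuci in 10 of the 15 genes that rose and in 13 of the 15 that fell, the other 2 being Fos and Fosb. BMSC lay nearer to shLuci in 14 of the 15 that rose and in 11 of the 15 that fell. The libraries labelled shRac1+OGD lay nearer to shLuci+OGD in 6 of the 15 that rose and in 11 of the 15 that fell. What sets the undeprived groups apart was not tested, and the labels give no batch.

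**Figure D3:**
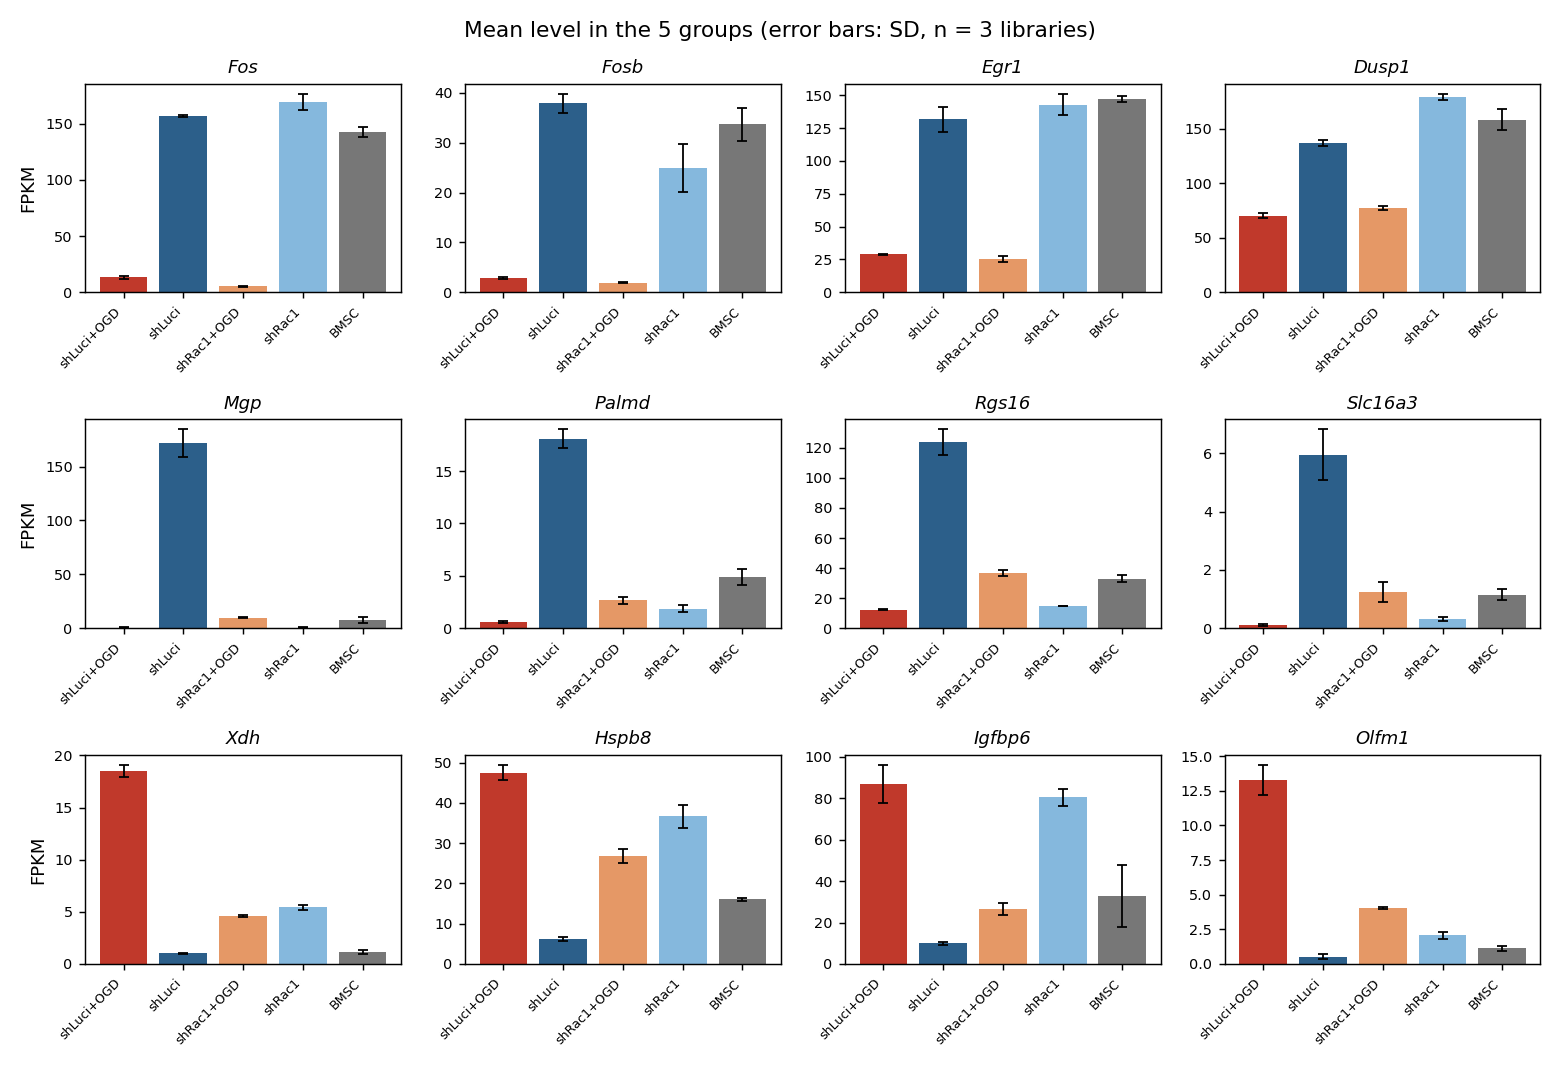
Mean FPKM with SD (n = 3 libraries) of 12 genes in shLuci+OGD, shLuci, shRac1+OGD, shRac1 and BMSC, on linear axes from 0. Fos, Fosb, Egr1 and Dusp1 are low in both deprived groups, whereas Mgp is at 172 FPKM in shLuci and below 10 FPKM in the other 4 groups.

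**Figure D4:**
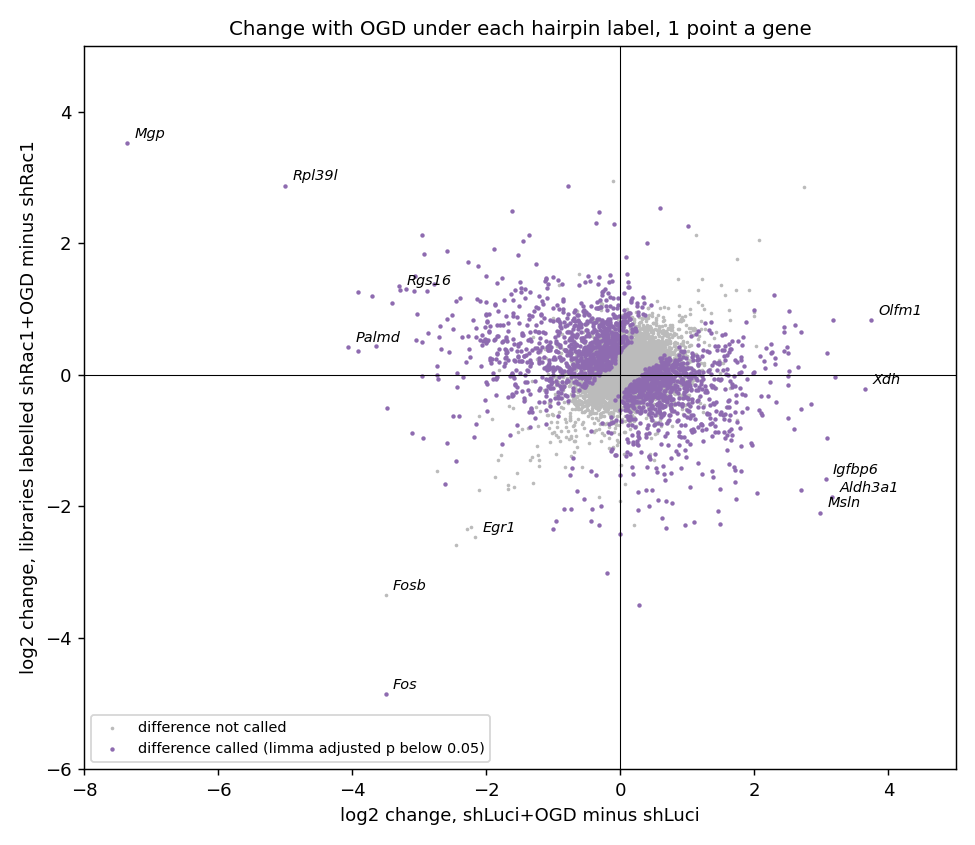
Change with OGD on the log2 scale for each of 11515 genes, in the shLuci pair (horizontal) and in the pair labelled shRac1 (vertical). Purple marks the 1922 genes for which the difference between the changes was called; Fos, Fosb and Egr1 lie at the lower left, and Mgp at the upper left.

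Other lists differed between the pairs in their counts. Over all tested genes 22.3% were called in the shLuci pair (13.1% higher, 9.18% lower). In the shRac1 pair it was 11.9% (7.76% higher, 4.19% lower), so fewer calls there are not particular to a list. The difference was called positive in 7.82% and negative in 8.88% of all tested genes. Fatty acid genes had 14 members higher and 1 lower in the shLuci pair, against 1 higher and 0 lower in the shRac1 pair, with 8 members called positive and 1 negative in the test of the difference. Scd stood at 23.2 ± 0.759 FPKM in shRac1+OGD and 22.1 ± 1.25 FPKM in the libraries labelled shRac1 (difference of 1.38 on the log2 scale, SE 0.29, limma adjusted p = 0.005), and Hadha at 73.2 ± 1.15 FPKM in shRac1+OGD and 81.7 ± 2.29 FPKM in the libraries labelled shRac1 (difference of 0.81 on the log2 scale, SE 0.08, limma adjusted p = 8.68e-06). YAP and TEAD targets had 0 members higher and 9 lower in the shLuci pair, against 1 higher and 2 lower in the shRac1 pair, with 7 members called negative and 0 positive. Tgfb2 stood at 96.1 ± 1.58 FPKM in shRac1+OGD and 87.7 ± 4.16 FPKM in the libraries labelled shRac1 (difference of -2.21 on the log2 scale, SE 0.09, limma adjusted p = 6.99e-09), and Ctgf at 1053 ± 13.3 FPKM in shRac1+OGD and 1111 ± 35.0 FPKM in the libraries labelled shRac1 (difference of -0.99 on the log2 scale, SE 0.17, limma adjusted p = 0.00141). The TGF-beta axis had 3 members higher and 9 lower in the shLuci pair, against 4 higher and 1 lower in the shRac1 pair, with 12 members called negative and 4 positive. Trophic factors had 2 members higher and 9 lower in the shLuci pair, against 4 higher and 3 lower in the shRac1 pair, with 11 called negative and 2 positive. Vegfa, at 53.9 ± 6.15 FPKM in shRac1+OGD and 46.1 ± 3.67 FPKM in the libraries labelled shRac1 (difference of -1.56 on the log2 scale, SE 0.36, limma adjusted p = 0.00847), and Ccl2, at 24.8 ± 1.204 FPKM in shRac1+OGD and 3.01 ± 0.788 FPKM in the libraries labelled shRac1 (difference of -3.66 on the log2 scale, SE 0.26, limma adjusted p = 6.57e-07), differed in their change between the pairs. Cell death regulators had 9 members higher and 2 lower in the shLuci pair, against 2 higher and 2 lower in the shRac1 pair, with 8 called positive and 1 negative, and Bcl2l11 stood at 3.48 ± 0.184 FPKM in shRac1+OGD and 2.77 ± 0.224 FPKM in the libraries labelled shRac1 (difference of 1.79 on the log2 scale, SE 0.20, limma adjusted p = 3.36e-05). Antigen processing had 6 members higher and 1 lower in the shLuci pair, against 1 higher and 1 lower in the shRac1 pair, with 7 called positive and 1 negative. Nqo1, by contrast, stood at 299.9 ± 16.9 FPKM in shRac1+OGD and 177 ± 5.68 FPKM in the libraries labelled shRac1, and Txnip at 47.2 ± 1.25 FPKM in shRac1+OGD and 28.7 ± 0.181 FPKM in the libraries labelled shRac1, and the difference was not called for either gene.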

How the data were processed

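RNA of rat bone marrow mesenchymal stem cells was sequenced by Illumina protocols, per the labels. The submitters' processing notes name StringTie 1.2.3 and HISAT2, the second without a version. The authors deposited FPKM for each gene in each of the 15 libraries, per the file headers, and no counts. No source used here names the genome build. The authors' lists of changed genes cover 6 pairs of groups, 0 of them shLuci+OGD against shLuci, and were not used.

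Groups were taken from the sample titles, since the treatment protocol gives the name BMSC-shRac1 both to a group without OGD and to a group with OGD. A gene was kept where 3 or more of the 15 libraries reached 1 FPKM (11515 kept, 654 removed). log2(FPKM + 0.5) was fitted in R 4.3.3 by limma 3.58.1, using lmFit and eBayes with a trend, as 5 group means over all 15 libraries with 10 residual degrees of freedom. On this scale the changes of genes with low FPKM are understated. Tests are two-sided and adjusted by Benjamini and Hochberg over all genes kept, and a gene is called below 0.05. The method was tested on simulated data. Values after ± are SDs of 3 libraries, and SE is limma's.

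The groups compared and the 62 gene lists were chosen with earlier results of these data known. Named genes are the 15 largest rises and falls (those with a symbol, a mean of 5 FPKM or more in the higher group and no overlap), up to 6 called members of each list, members marked as key, up to 3 members of a list with none called, the 10 largest differences between the OGD changes, Rac1, and genes listed at 0 in part. Not every gene that meets this rule is described, and some items are not reported here. Klf6 and Zfp36 were chosen after their values were seen, and Thy1, Cd14, Cd68, Fcer1g, Ngp, Ibsp, Myh11, Dmp1, Sox9, Acan, Fabp4 and Tek stand as cell type markers. Alternatives were other pseudocounts, filters and scalings, other sets of groups, a replicate block, library weights, no trend, and leaving out libraries. Promoters came from RefSeq (GRCr8) and were matched by symbol.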

Additional observations from a re-analysis of the deposited data

Results flagged for a closer look

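Groups of 3 libraries are too small for a test of single libraries, so the results below were picked out by a single criterion, a called difference between the change with OGD in the shLuci pair and that in the shRac1 pair (limma, adjusted p below 0.05). It was met by 163 of the 222 tested genes named above, against 16.7% of all tested genes, and many of them were named for a large change in the shLuci pair, which is part of the difference. Values are differences on the log2 scale, and a positive value means that the change was the more positive in the shLuci pair.

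Among the 30 largest changes of the shLuci pair, the difference was positive for Msln (5.09), Aldh3a1 (5.02), Igfbp6 (4.65), Cdhr1 (4.45), Anpep (4.04), Xdh (3.87), Hspb8 (3.29), Abcc9 (3.23), Pcp4l1 (3.22), Olfm1 (2.91), Prr15 (2.74), Tgfbi (2.53), Reln (2.34), Gja4 (2.05), Lyve1 (1.85) and Fos (1.36). Negative values were found for Mgp (-10.88), Rpl39l (-7.87), S100a16 (-5.17), Aard (-4.90), Rassf4 (-4.65), Rgs16 (-4.57), Fstl3 (-4.50), Slc16a3 (-4.50), Palmd (-4.48), Wfdc1 (-4.27), Apoe (-4.08), Parm1 (-2.97) and Nov (-2.22). Among early, ERK and stress response genes, the difference was positive for Chac1 (1.72), Atf3 (1.30), Dusp5 (0.94), Ppp1r15a (0.70), Atf4 (0.59) and Bag3 (0.38). The difference was negative for Dusp4 (-3.57), Cryab (-2.87), Spry4 (-2.30), Egr2 (-1.15), Cyr61 (-0.85), Hspa1b (-0.76), Asns (-0.41) and Dusp6 (-0.39). Among genes of oxygen, energy and lipids, the difference was positive for Lpin1 (1.71), Scd (1.38), Pfkm (0.99), Hadha (0.81), Aldoc (0.77), Hadhb (0.62), Sdha (0.62), Srebf2 (0.59), Mxi1 (0.58), Mt-nd4 (0.56), Acadm (0.52), Adm (0.48), Fads1 (0.47), Ndrg1 (0.47), Ero1a (0.45) and Acadvl (0.37). Genes with a negative value were Lpl (-2.94), Vegfa (-1.56) and Car9 (-0.91). Among genes of oxidants and metals, the difference was positive for Ptgs1 (3.41), Mt2A (2.16), Aox1 (2.15), Gsta1 (1.99), Steap3 (1.14), Gpx3 (1.06), Sod2 (0.40) and Hmox1 (0.39). Below 0 lay Sod3 (-3.20), Nox4 (-2.15) and Cyba (-2.07). Among genes of cell death and the cell cycle, the difference was positive for Btg1 (1.81), Bcl2l11 (1.79), Bid (1.52), Bmf (1.24), Mlkl (0.75) and Ripk3 (0.65). A negative difference was seen for Pmaip1 (-1.33), Plk3 (-1.19), Ccne1 (-0.79), Cdkn1a (-0.78) and Cdc6 (-0.72). Among secreted signals and their receptors, the difference was positive for Igfbp2 (2.99), Osmr (2.60), Tgfbr3 (2.08), Nkd1 (2.06), Egfr (1.95), Wnt10b (1.94), Il6 (1.32), Ednra (1.23), Sfrp4 (1.02), Ltbp3 (0.83) and Bdnf (0.80). The sign was negative for Lif (-4.35), Ccl2 (-3.66), Edn1 (-2.95), Pdgfd (-2.93), Pappa (-2.81), Tgfb2 (-2.21), Gas6 (-1.84), Bmp4 (-1.77), Cxcl1 (-1.55), Tgfb3 (-1.43), Hey1 (-1.40), Cxcl12 (-1.31), Smad7 (-0.71), Tgfb1 (-0.54) and Hbegf (-0.50). Among interferon and antigen genes, the difference was positive for Psmb9 (2.10), Psmb8 (1.85), Tap2 (1.55), Irf7 (1.43), Stat2 (1.30), Tapbp (1.02), Irf1 (0.68) and Cd14 (0.56). Among cytoskeletal, matrix and surface genes, the difference was positive for Lama5 (2.61), Des (2.43), Thbs2 (2.09), Serpine2 (1.34), Plau (1.11), Itga5 (1.11), Cd9 (0.87), Itga3 (0.62) and Spp1 (0.48). Lower in the shLuci pair by this measure were Robo2 (-4.15), Efnb1 (-3.44), Tnc (-2.50), Nuak2 (-2.42), Fbln2 (-2.42), Slit3 (-2.30), Mmp2 (-2.27), Col12a1 (-2.21), Timp3 (-2.16), Col11a1 (-1.97), Myh11 (-1.40), Cdh2 (-1.04), Ctgf (-0.99), Acta2 (-0.98), Tagln (-0.81), Actn4 (-0.57), Col6a2 (-0.51) and Amotl2 (-0.35). Among lineage and other genes, the difference was positive for Msx2 (3.03), Sgk1 (2.73), Meis2 (2.14), Hoxc6 (1.12), Dmp1 (1.10), Ctsl (0.91) and Cebpa (0.54). Negative differences were those of Galnt3 (-5.10), Kif26b (-4.76), Ctsz (-3.58), Nes (-2.87), Tubb3 (-2.36), Sox9 (-2.11), Alpl (-1.55), Tbx18 (-0.93), Msx1 (-0.69), Ibsp (-0.67) and Tsc22d3 (-0.40). The libraries labelled shRac1 enter each of these differences, and their range of Rac1 levels overlaps that of shLuci. What lies behind the differences was not tested.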

How the results depend on the processing

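No gene called between shLuci+OGD and shLuci changed sign under any of 19 alternatives that tested it. Of the 222 tested genes named above 188 were called, and 191 stayed on the same side of the threshold under each alternative that gave them a value. The filter at a mean of 5 FPKM kept 170 of them. Pseudocounts of 1 and 0.1, no filter, no trend, the 3 rescalings and the replicate block left the totals within 1.5 times of 2564. The genes called changed more: of the 2564, common-total scaling kept 1850, median-of-ratios scaling 2181 and quantile normalization 2130. Genes with a mean of at least 5 FPKM, which are fewer by construction, gave 1621 calls (951 higher, 670 lower) and 1120 in the test of the difference between pairs. Leaving out BMSC gave 5251 (3275 and 1976) and 4175, and leaving out BMSC replicate 2 alone gave 5259 (3273 and 1986) and 4217. All 2564 calls were among both sets. Library weights gave 6999 (4268 and 2731) and 6673. A fit to the compared groups only gave 4050 (2524 higher) and, for the difference, 4175. In the fits without BMSC, without BMSC replicate 2 and to the compared groups only, log2 changes stayed the same (Bax -0.31, Hif1a 0.55). Only the pooled spread and its degrees of freedom differed there. What lies behind that spread, and behind the move under library weights, was not tested. With 1 library left out the total lay between 1944 and 2070, genes higher between 1142 and 1182, genes lower between 802 and 892, and the difference between 1515 and 1614. Leave-one-out fits have fewer residual degrees of freedom. The replicate block gave 2403 calls (1399 and 1004) and 1753 for the difference. Replicate numbers did not pair the samples, since the deviations of same-numbered shLuci+OGD and shLuci libraries correlated at -0.27, -0.142 and 0.173 across genes. Low FPKM and unknown depth limit the values of genes below 1 FPKM.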
